A study of Mus musculus with 10 samples.

Results

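Chemokines are small secreted proteins that guide the movement of cells, and chemokine receptors are the G protein-coupled receptors through which cells sense them. The genes described here are all rows of the deposited expression table whose symbol begins with a chemokine or receptor root (Ccl, Cxcl, Xcl, Cx3cl, Ccr, Cxcr, Cx3cr, Xcr or Ackr) followed by a digit. The rule found 68 rows of 21936, 45 for ligands and 23 for receptors, which carry 62 distinct symbols because some genes have further copies on unplaced scaffolds. The table comes from spinal cord of wild-type mice at day 14 of experimental autoimmune encephalomyelitis (EAE), an induced disease of mice, used to model multiple sclerosis, with autoimmune inflammation and myelin loss. There are 2 groups with 5 samples each, and the titles give the group names Nar and EAE. The Nar mice had EAE and received naringenin, a citrus flavonoid. Naringenin also stands in the treatment field of the EAE samples, whose actual treatment (vehicle or none) is therefore not known. The labels used here give no strain, sex, age, dose or route, and healthy spinal cord was not analysed here. Whether each sample is its own animal is not stated, and the p-values then cover spread among samples that may be technical.

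In EAE, chemokines made by glia, endothelium and invading leukocytes draw monocytes and T cells into the spinal cord. Ligands are named for the spacing of their first cysteines: CC, CXC, CX3C or XC. Some are made all the time by neurons, glia or stroma, such as Cx3cl1 and Cxcl12. Others, such as Ccl2 and Cxcl10, are switched on by inflammatory cytokines through NF-kB and the interferon regulatory factors. Atypical receptors (Ackr) bind chemokines without G protein signalling and remove or carry them.

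Library totals were 14504726 to 15139706 counted reads in Nar and 16658798 to 18961501 in EAE, with no overlap. Reads of the mitochondrial genome made up 6.69% to 7.51% of counts in Nar and 4.62% to 7.01% in EAE. Neuron markers (8 of 8 tested, summed level 4618 to 5092 counts per M reads, CPM, in Nar and 4202 to 4715 in EAE) and oligodendrocyte markers (8 of 8 tested, 31474 to 38079 and 23930 to 32958 CPM) were abundant, as in spinal cord. Of the 14595 rows tested, 344 passed as lower and 230 as higher in Nar, at an edgeR adjusted p under 0.05. Sample Nar 4 stood apart from the other Nar samples: comparing counts of sample pairs, chi-square per degree of freedom reached 14.1 to 17.6 for pairs with Nar 4 and 4.06 to 7.74 for the other Nar pairs. Pairs of EAE samples ran from 6.4 to 37.5, so several differed more than any pair with Nar 4. Because Nar 4 stood apart within its group, results are given with all 10 samples and without Nar 4. Removing the Nar sample that lies nearest EAE in inflammatory genes lowers their p-values, so values without Nar 4 serve only to describe those 9 samples.

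A total of 30 members, 20 ligands and 10 receptors, had enough reads to be tested, and 38 rows did not. With all 10 samples, 2 members fell in Nar, the macrophage-derived ligand Ccl3 and the Cxcl12 receptor Cxcr4, and 1 rose, the ligand Ccl27a. That is 6.67% of the tested members lower and 3.33% higher, against 2.36% and 1.58% of all genes tested (3.93% in either direction). The same shares of all genes apply to the counts called in the lists of genes and markers below. The median log2 fold change (Nar minus EAE) was −0.53 over the 30 members and 0.016 over all genes tested, and 24 of the 30 had a negative value. A further 8 members had an unadjusted p under 0.05 without passing the adjusted threshold. Without Nar 4, 14 members were lower and 1 higher, against 7.49% and 2.61% of all genes tested (10.1% in either direction). A gene that is high in EAE passes the read filter more easily than a gene low in both groups, so these counts describe the tested members and not the whole family.

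**Figure D1:**
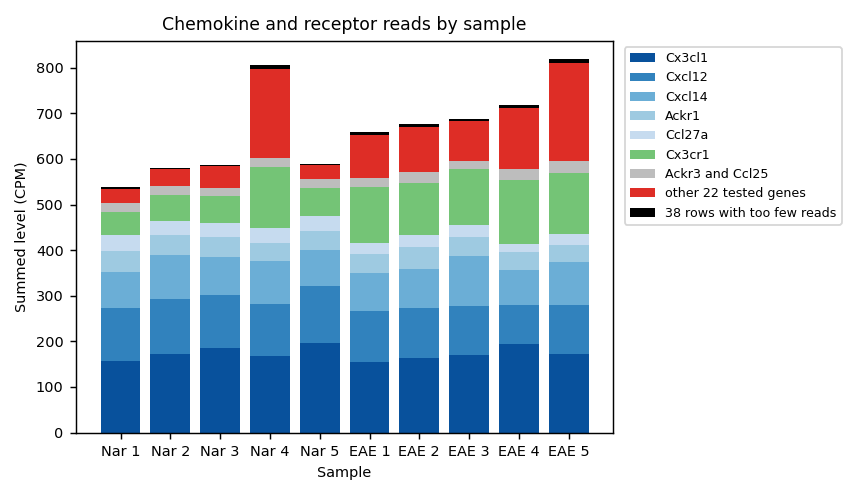
Stacked bars give the summed level of chemokine and receptor genes in each of the 10 samples (CPM, linear axis from 0), split by gene. The blues are Cx3cl1, Cxcl12, Cxcl14, Ackr1 and Ccl27a, of which Ccl27a is 29.7 to 34.8 CPM in Nar and 19.5 to 26.9 in EAE, and the red block of the other 22 tested genes is 31.7 to 48.2 CPM in Nar 1, 2, 3 and 5, 195 in Nar 4 and 88.0 to 216 in EAE.

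Most chemokine reads came from 5 genes that did not pass the test. Cx3cl1, Cxcl12, Cxcl14, the microglial receptor Cx3cr1 and Ackr1 together held 66.7% to 85.2% of the member reads of a sample. All member rows summed to 539 to 590 CPM in Nar 1, 2, 3 and 5, to 805 CPM in Nar 4, and to 659 to 818 CPM in EAE. The other 22 tested genes, which hold the inflammatory ligands, summed to 31.7, 36.2, 48.2 and 32.7 CPM in Nar 1, 2, 3 and 5. In Nar 4 they reached 195 CPM, inside the EAE range of 88.0 to 216 CPM. The plot of summed reads by sample shows that the samples differ mainly in these genes and in Cx3cr1.

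The upstream sequence is shown for every tested member whose window held any of 3 motifs that inflammatory factors bind, because inflammatory chemokine genes are known targets of these factors. These windows were chosen after the matches were seen. RefSeq promoter entries on GRCm38.p6 were found for 22 of the 30 tested members, in 25 windows of 250 bases before the annotated start. Ccl2, Ccl4, Ccl5, Ccl7, Cxcl5, Cxcl16 and Ccr10 were among those without an entry and were not searched. Both strands were searched for the kappaB consensus of NF-kB, for GAAA, any 2 bases and GAAA again (the ISRE core of interferon regulatory factors), and for TTC, any 3 bases and GAA (the GAS core of STAT factors). Matches are in capitals below, 5′ to 3′ on the strand of the gene.
Cxcl10, chr5:92348890-92349139, minus strand: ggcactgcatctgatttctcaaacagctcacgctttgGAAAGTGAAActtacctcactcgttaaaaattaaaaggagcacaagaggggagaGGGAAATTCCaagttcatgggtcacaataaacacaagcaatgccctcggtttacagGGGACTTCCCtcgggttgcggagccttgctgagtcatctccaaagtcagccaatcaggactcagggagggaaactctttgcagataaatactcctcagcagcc
Ccl9, chr11:83578637-83578886, minus strand: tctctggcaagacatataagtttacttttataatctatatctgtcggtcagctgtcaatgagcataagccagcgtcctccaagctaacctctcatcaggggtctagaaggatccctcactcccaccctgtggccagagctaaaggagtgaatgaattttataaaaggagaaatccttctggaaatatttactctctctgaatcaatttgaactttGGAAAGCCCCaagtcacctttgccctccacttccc
Cxcl14, chr13:56296552-56296801, minus strand: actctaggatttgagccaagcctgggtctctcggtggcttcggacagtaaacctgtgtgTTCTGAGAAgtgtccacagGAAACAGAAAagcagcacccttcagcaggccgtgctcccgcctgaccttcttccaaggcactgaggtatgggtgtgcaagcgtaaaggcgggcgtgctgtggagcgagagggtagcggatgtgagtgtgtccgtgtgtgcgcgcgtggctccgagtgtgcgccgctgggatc

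The Cxcl10 window held 1 match to the ISRE core (GAAAGTGAAA, 213 to 204 bases before the start) and 2 to the kappaB consensus (GGGAAATTCC, 159 to 150, and GGGACTTCCC, 103 to 94). The Ccl9 window held 1 kappaB match, GGAAAGCCCC, read on the other strand as GGGGCTTTCC. The Cxcl14 window held the GAS core TTCTGAGAA and the ISRE core GAAACAGAAA. None of the 3 motifs overlapped another in these windows. Over all 32851 mouse windows of the same length, 3.90% held a kappaB match, 2.98% the ISRE core and 7.02% the GAS core. Among the 25 member windows the counts were 2, 2 and 1. No window of Ccl3, Cxcr4 or Ccl27a, the members called with all samples, held any of these letters. A match is a description of letters and not a shown binding site.

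The list of monocyte-attracting ligands holds Ccl2, Ccl7, Ccl8 and Ccl12. Ccl2, Ccl7 and Ccl12 act through Ccr2 and related receptors on inflammatory monocytes, while Ccl8 was paired here with Ccr8. Ccl2, the main monocyte attractant, was at 0.406, 0.352, 1.20, 10.3 and 0.412 CPM in Nar 1 to 5 and at 1.60, 2.44, 1.54, 2.61 and 11.3 CPM in EAE 1 to 5. Nar 4 and EAE 5 were both far above the rest of their groups, and the groups overlapped. The log2 fold change was −0.62 (SE 1.03, edgeR adjusted p = 0.762), and −2.69 without Nar 4 (SE 0.761, adjusted p = 0.0505), which still missed the threshold. Without EAE 5 the sign turned (0.30, adjusted p = 0.904). Ccl2 (ENSMUSG00000035385) lies on chromosome 11 from 82035571 to 82037453.

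Ccl12, a close mouse relative of Ccl2, was at 0.541, 2.26, 3.54, 14.2 and 1.99 CPM in Nar and at 6.57, 7.16, 4.45, 5.69 and 16.6 CPM in EAE. Nar 1, 2, 3 and 5 were all below the lowest EAE sample. The log2 fold change was −0.84 (SE 0.729, edgeR adjusted p = 0.524) with all samples and −1.95 (SE 0.50, adjusted p = 0.0333) without Nar 4. Ccl7 had 0.784 ± 1.30 CPM in Nar against 1.34 ± 1.41 in EAE (SD, n = 5 each, log2 fold change −0.76, edgeR adjusted p = 0.674). Again Nar 4 (3.10 CPM) and EAE 5 (3.81 CPM) were the high samples. Ccl8 was too low to test, with 17 reads in all Nar samples and 37 in all EAE samples.

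The only ligand that fell with all 10 samples was Ccl3, a ligand of Ccr1. Ccl3, also called MIP-1 alpha and made by activated microglia and macrophages, was at 0.473, 0.634, 0.200, 2.09 and 0.137 CPM in Nar. In EAE it was at 3.73, 2.65, 7.07, 3.08 and 1.88 CPM, so that only Nar 4 reached the EAE range. Ccl3 fell by 2.36 on the log2 scale (SE 0.594, edgeR adjusted p = 0.0499), a level 5.15-fold higher in EAE. This call lies at the threshold. It ended without any 1 sample other than Nar 4 (log2 fold change −2.53 to −1.99, adjusted p 0.058 to 0.135), without a filter on low counts (−2.37, 0.065) and with the mitochondrial share as a covariate (−2.87, 0.0834). Without Nar 4 it was −3.33 (SE 0.496, adjusted p = 0.000688). That fold rests on 7, 9, 3 and 2 reads in Nar 1, 2, 3 and 5, so its size is uncertain. Ccl3 (ENSMUSG00000000982) lies on chromosome 11 from 83647844 to 83649355, minus strand.

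Ccl4, or MIP-1 beta, a close relative of Ccl3, was at 0.270, 0, 0.200, 1.69 and 0.137 CPM in Nar and at 2.07, 2.17, 2.51, 0.957 and 1.14 CPM in EAE. The log2 fold change was −1.92 (SE 0.682, edgeR adjusted p = 0.131), and −3.46 without Nar 4 (SE 0.536, adjusted p = 0.000763). In reads, Nar 1, 2, 3 and 5 had 4, 0, 3 and 2, so the size of that fold is uncertain. Ccl5, or RANTES, which T cells and other leukocytes make, was at 2.23, 1.90, 2.60, 9.92 and 0.823 CPM in Nar and at 6.39, 5.89, 2.62, 9.89 and 7.17 CPM in EAE. Nar 4 was marginally above the highest EAE sample, and the other Nar samples were below the lowest. Its log2 fold change of −0.87 (SE 0.592, edgeR adjusted p = 0.413) became −1.75 without Nar 4 (SE 0.375, adjusted p = 0.0102).

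Ccl6 and Ccl9 are rodent ligands of Ccr1 made by myeloid cells. Ccl6 was at 3.04, 2.47, 3.0, 10.7 and 1.44 CPM in Nar and at 7.87, 8.27, 10.9, 15.9 and 35.9 CPM in EAE, with EAE 5 far above the others. Its log2 fold change was −1.93 (SE 0.627, edgeR adjusted p = 0.120) and −2.66 without Nar 4 (SE 0.548, adjusted p = 0.015). Ccl9 was at 1.76, 1.83, 1.54, 7.56 and 1.37 CPM in Nar and at 3.61, 3.61, 4.79, 5.69 and 7.05 CPM in EAE. Nar 4 was above every EAE sample and the other 4 Nar samples were below every one. Its log2 fold change was −0.81 (SE 0.462, edgeR adjusted p = 0.319) and −1.60 without Nar 4 (SE 0.245, adjusted p = 0.000688).

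**Figure D2:**
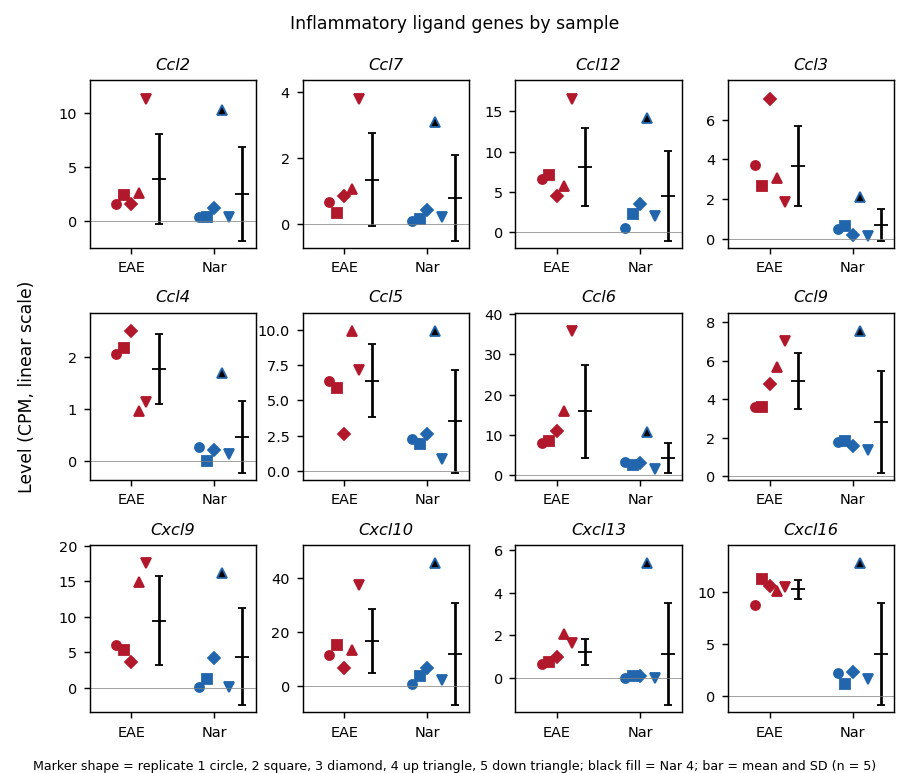
Each panel plots the level of 1 inflammatory ligand gene (CPM, linear axis) in the 5 EAE and 5 Nar samples, with the mean and SD beside the points, where an SD wider than the mean reaches below 0. Nar 4, filled black, lies within or above the EAE samples in all 12 panels, for Cxcl16 at 12.8 CPM, where Nar 1, 2, 3 and 5 lie at 1.13 to 2.34.

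The interferon-induced ligands Cxcl9 and Cxcl10 attract activated T cells through Cxcr3. Cxcl10 was at 0.609, 3.60, 6.54, 45.4 and 2.26 CPM in Nar and at 11.4, 15.1, 6.39, 13.2 and 37.2 CPM in EAE. Nar 4 was the highest of all 10 samples, and Nar 3 was above EAE 3. The log2 fold change was −0.51 (SE 0.987, edgeR adjusted p = 0.799) and −2.35 without Nar 4 (SE 0.672, adjusted p = 0.0642). Cxcl9 was at 0.135, 1.20, 4.27, 16.2 and 0.137 CPM in Nar and at 6.04, 5.36, 3.59, 14.8 and 17.5 CPM in EAE, where Nar 3 and 4 overlapped EAE. It missed the threshold with all samples (−1.11, SE 1.02, edgeR adjusted p = 0.556) and without Nar 4 (−2.71, SE 0.867, adjusted p = 0.094). Cxcl11 was not analysed here.

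In Cxcl16 and Cxcl13, Nar 4 was above every EAE sample while the other 4 Nar samples were below every one. Cxcl16, which exists as a membrane-bound and a shed ligand of Cxcr6, was at 2.23, 1.13, 2.34, 12.8 and 1.65 CPM in Nar and at 8.82, 11.3, 10.7, 10.2 and 10.5 CPM in EAE. Its log2 fold change was −1.35 (SE 0.589, edgeR adjusted p = 0.215), and −2.48 without Nar 4 (SE 0.189, adjusted p = 2.57e-06). Of its exon bases, 18.3% are shared with Zmynd15 on the opposite strand, which had 1.18 ± 0.739 CPM in Nar against 1.86 ± 0.419 in EAE (SD, n = 5 each). Without strand information, reads there cannot be told apart. Cxcl13, which draws B cells through Cxcr5 into lymphoid tissue, had 0, 0.0705, 0.0668, 5.40 and 0 CPM in Nar and 0.651, 0.742, 0.970, 2.07 and 1.65 CPM in EAE. In reads, Nar 1, 2, 3 and 5 had 0, 1, 1 and 0, and Nar 4 had 80. Without Nar 4 edgeR gave an adjusted p of 0.000597 against 0.959 with it. With 2 reads in the 4 samples, a fold without Nar 4 has no reliable size. Of 7 listed B cell and plasma cell markers, 5 had a row in the deposited table and 1 was tested. It was the antibody joining chain Jchain, which fell (−2.86, edgeR adjusted p = 0.0179). These markers summed to 1.07 to 2.74 CPM in Nar 1, 2, 3 and 5, 3.64 in Nar 4 and 4.98 to 23.4 in EAE. Most of each sum was Jchain itself (1.66 ± 0.705 CPM in Nar against 12.1 ± 7.51 in EAE, SD, n = 5 each). The part of these markers in the Cxcl13 values was not tested.

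Cx3cl1, Cxcl12 and Cxcl14 were the most abundant ligands and none passed the test. Cx3cl1, or fractalkine, is a neuronal ligand that microglia sense. It was at 158, 172, 185, 167 and 195 CPM in Nar and at 155, 163, 171, 194 and 173 CPM in EAE, a log2 fold change of 0.038 (SE 0.0729, edgeR adjusted p = 0.796). Cxcl12, made by endothelium, meninges and other stroma, was at 114, 121, 116, 115 and 125 CPM in Nar and at 113, 110, 107, 86.3 and 108 CPM in EAE. All 5 Nar samples were above all 5 EAE samples in CPM, but the size was 0.17 (SE 0.071, edgeR adjusted p = 0.172). In FPKM (reads per kilobase of gene length and M counted reads) the groups overlapped, with 13.88 in Nar 1 and 13.98 in EAE 1. In CPM the groups did not overlap in 3 tested members, Cxcl12 and Ccl27a higher and Cxcr4 lower. Of all genes tested, 2.67% were higher without overlap and 3.12% lower. Cxcl14, a highly conserved chemokine, was at 79.3, 95.5, 82.8, 93.9 and 80.6 CPM in Nar and at 81.6, 86.2, 109, 77.6 and 92.8 CPM in EAE, a log2 fold change of −0.049 (SE 0.0908, edgeR adjusted p = 0.789).

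Ccl27a rose in Nar. Known as a skin chemokine that binds Ccr10, it was at 34.8, 31.1, 29.7, 32.0 and 33.1 CPM in Nar and at 23.9, 26.0, 26.9, 19.5 and 23.7 CPM in EAE. No Nar sample was as low as any EAE sample, and Nar 4 lay with its group. The log2 fold change was 0.42 (SE 0.0887, edgeR adjusted p = 0.0204), or 1.34-fold, and it was also 0.42 without Nar 4 (adjusted p = 0.0125). The call ended without Nar 1 (adjusted p = 0.085), Nar 3 (0.0514), Nar 5 (0.0782) or EAE 1 (0.0534), with a log2 fold change of 0.38 to 0.43 in these. With mitochondrial read share in the model it was 0.23 (edgeR adjusted p = 0.293). Ccl27a (ENSMUSG00000073888) lies on chromosome 4 from 41769467 to 41774247. Further Ccl27a copies on unplaced scaffolds and Ccl27b held 0 to 3 reads per sample, and how reads were split among these near-identical genes is not given in the sources used here, so its level is uncertain.

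The other tested ligands did not pass, with or without Nar 4. Ccl25, a thymus and gut ligand of Ccr9, had 9.66 ± 0.565 CPM in Nar against 8.85 ± 1.12 in EAE (SD, n = 5 each, log2 fold change 0.12, edgeR adjusted p = 0.536). Ccl22, which attracts regulatory and other Ccr4-bearing T cells, had 1.09 ± 0.282 and 1.02 ± 0.413 CPM (0.083, adjusted p = 0.902). Ccl28, a mucosal ligand of Ccr10, had 2.11 ± 1.02 and 2.36 ± 0.732 CPM (−0.16, adjusted p = 0.812). Cxcl5, a neutrophil attractant, had 0.613 ± 0.304 and 0.797 ± 0.278 CPM (−0.37, adjusted p = 0.614).

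Among the receptors, Cxcr4 fell in Nar. Cxcr4, the signalling receptor for Cxcl12 on leukocytes and many other cells, was at 3.92, 3.24, 4.34, 4.79 and 2.81 CPM in Nar and at 6.69, 5.83, 6.39, 9.95 and 8.53 CPM in EAE. All 5 Nar samples were below all 5 EAE samples, Nar 4 included. Cxcr4 fell by 0.97 on the log2 scale (SE 0.19, edgeR adjusted p = 0.016), a level 1.95-fold higher in EAE, and kept its call without any 1 sample. With mitochondrial read share added to the model it did not pass (−0.68, edgeR adjusted p = 0.191), nor did any other member. Cxcr4 (ENSMUSG00000045382) lies on chromosome 1 from 128588199 to 128592293, minus strand.

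Cx3cr1, the fractalkine receptor of microglia, was at 49.0, 55.6, 59.3, 134 and 60.7 CPM in Nar and at 121, 115, 122, 139 and 135 CPM in EAE. Nar 4 lay among the EAE samples and the other 4 below all of them. The log2 fold change was −0.82 (SE 0.261, edgeR adjusted p = 0.113) and −1.17 without Nar 4 (SE 0.0817, adjusted p = 1.17e-06). Of the microglia markers 11 of 11 were tested, 2 fell (the purinergic-family receptor genes Gpr34, −0.86, and P2ry13, −0.86), and the median was −0.50. Their summed level was 347 to 387 CPM in Nar 1, 2, 3 and 5, 840 in Nar 4 and 644 to 811 in EAE, with no marker at 0. Their part in the Cx3cr1 values was not tested. In bulk tissue, fewer cells of a type and less RNA per cell cannot be told apart, and this holds for every gene here.

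The monocyte and macrophage receptors Ccr1 and Ccr2 did not pass with all samples. Ccr2, which marks inflammatory monocytes, was at 0.473, 1.13, 1.67, 9.85 and 0.412 CPM in Nar and at 3.02, 2.86, 2.11, 4.47 and 5.40 CPM in EAE. Nar 4 was the highest of all samples, with a log2 fold change of −0.40 with it (SE 0.785, edgeR adjusted p = 0.802) and −1.95 without it (SE 0.404, adjusted p = 0.00702). Ccr1 was at 0.609, 0.634, 0.601, 2.50 and 0.618 CPM in Nar and at 1.42, 1.33, 1.03, 3.03 and 5.80 CPM in EAE (−1.34, SE 0.575, edgeR adjusted p = 0.199, and −2.02, adjusted p = 0.0302, without Nar 4).

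Monocyte and macrophage markers, a list that holds Ccr2 itself, had 13 of 14 genes tested, of which 3 fell (Ms4a7, Cd68 and Lyz2), with a median of −0.84. Their summed level was 46.9 to 67.3 CPM in Nar 1, 2, 3 and 5, 240 in Nar 4 and 292 to 752 in EAE. In Fcgr1, Itgam, Ly6c2, Plac8 and Cd163 Nar 4 was above every EAE sample, as it was in Ccr2. The summed level of Nar 4 was still below all EAE samples. Cd163 was the only tested marker of the list with a positive log2 fold change (0.37, edgeR adjusted p = 0.313). In EAE much of the sum was the lysozyme gene Lyz2 (32.9 ± 36.9 CPM in Nar against 323 ± 139 in EAE, SD, n = 5 each, edgeR adjusted p = 0.0361). No listed marker was at 0 in all samples, and their part in the receptor values was not tested.

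Cxcr6, the Cxcl16 receptor of effector and resident T cells, was at 0.406, 0.0705, 0, 1.08 and 0.275 CPM in Nar and at 1.54, 1.27, 0.970, 2.34 and 2.50 CPM in EAE. Only Nar 4 reached the EAE range. In reads, Nar 1, 2, 3 and 5 had 6, 1, 0 and 4, so the size of the fold is uncertain. Cxcr6 missed the threshold (−2.21, SE 0.599, edgeR adjusted p = 0.0589) and passed without Nar 4 (−3.15, SE 0.562, adjusted p = 0.00225) and without EAE 3 (0.0442). With all 10 samples it also passed with the DESeq2 Wald test (adjusted p = 0.00944), with limma-voom without (0.0252) and with sample weights (0.0028) and with limma on log2(FPKM + 1) (0.0261) or log2(FPKM + 0.1) (0.03). With the mitochondrial share as a covariate in edgeR it was −1.27 (adjusted p = 0.431). Of 12 listed T cell markers, 9 had a row in the deposited table and 6 were tested. Of these, 1 fell (the T cell receptor complex gene Cd3g, median of the list −1.46). The T cell markers summed to 1.92 to 4.34 CPM in Nar 1, 2, 3 and 5, 12.5 in Nar 4 and 7.36 to 20.3 in EAE. Their part in the Cxcr6 values was not tested.

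Ccr10 had 1.25 ± 0.325 CPM in Nar against 1.28 ± 0.359 in EAE (SD, n = 5 each, log2 fold change −0.03, edgeR adjusted p = 0.963). Among the atypical receptors, Ackr3, which takes up Cxcl12, was at 10.8, 10.9, 7.48, 10.6 and 9.54 CPM in Nar and at 10.8, 13.7, 11.3, 13.7 and 15.8 CPM in EAE. It was lower by 0.41 on the log2 scale without passing (SE 0.134, edgeR adjusted p = 0.10, and 0.0746 without Nar 4). Ackr4, which takes up Ccl19, Ccl21 and Ccl25, had 0.653 ± 0.15 and 0.834 ± 0.279 CPM (−0.34, adjusted p = 0.577). Ackr1, known from red cells and venules, was at 47.4, 45.0, 45.3, 41.0 and 40.7 CPM in Nar and at 43.3, 47.8, 42.0, 37.5 and 37.5 CPM in EAE (log2 fold change 0.076, edgeR adjusted p = 0.603). Of the Ackr1 exon bases, 25.7% are shared with the neighbouring gene Cadm3 on the same strand, which had 275 ± 19.3 and 304 ± 16.7 CPM, so the Ackr1 level is uncertain.

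**Figure D3:**
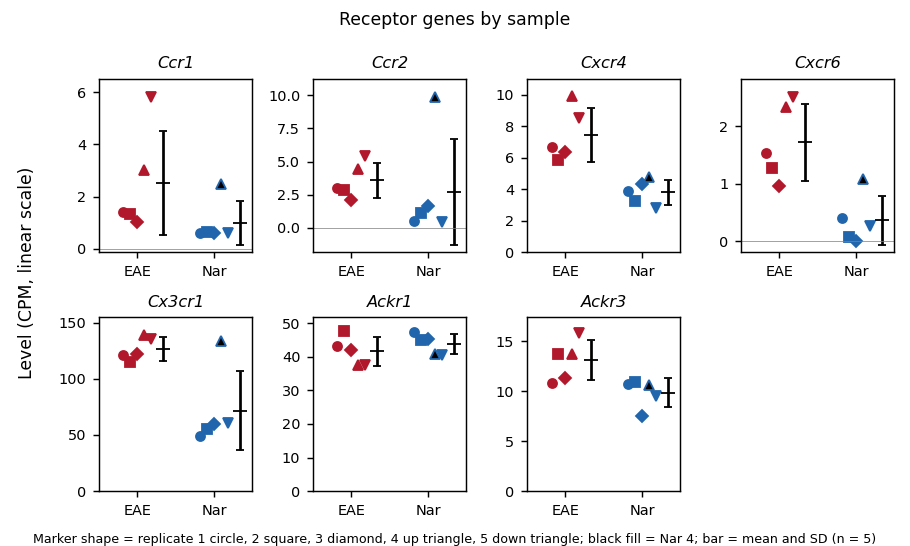
Each panel plots the level of 1 receptor gene (CPM, linear axis) in the 5 EAE and 5 Nar samples, with mean and SD. Cxcr4 separates the groups completely (2.81 to 4.79 against 5.83 to 9.95 CPM), while Cx3cr1, Ccr1, Ccr2 and Cxcr6 separate all Nar samples but Nar 4 (black) from EAE.

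Of the 14 members lower without Nar 4, the 13 named here were Ccl3, Ccl4, Ccl5, Ccl6, Ccl9, Ccl12, Cxcl13, Cxcl16, Ccr1, Ccr2, Cxcr4, Cxcr6 and Cx3cr1. Nar 4 lay within the EAE range in 7 of them, above it in 5 (Ccl5, Ccl9, Ccr2, Cxcl13 and Cxcl16) and below it in 1 (Cxcr4). Also leaving out EAE 5, the EAE sample with the highest Ccl2, Ccl6, Ccl7, Ccl12 and Cxcl10, gave 15 members lower, those 14 and Ccl2. Without Nar 4, the 4 Nar samples lay below all EAE samples in CPM in 15 members, against 8.68% of all genes tested. The 5 ligands Ccl3, Ccl4, Ccl5, Ccl6 and Ccl9 were all among them and all 5 lay below EAE in CPM in those 4 samples. For Ccl5 this rested on 2.60 CPM in Nar 3 against 2.62 in EAE 3, and in FPKM the order was reversed.

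**Figure D4:**
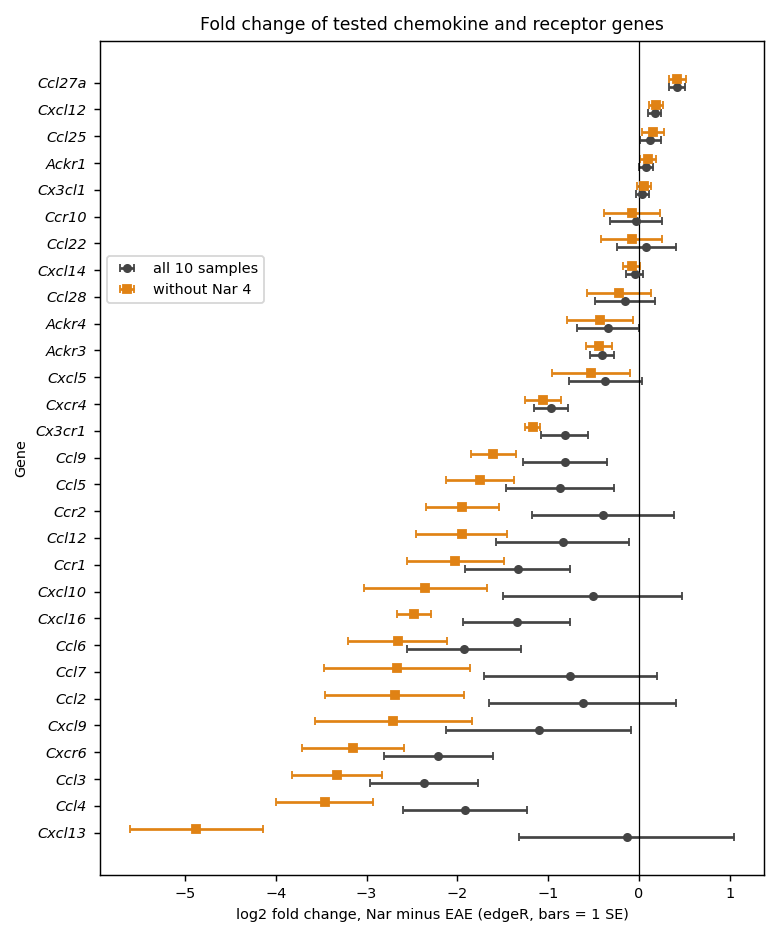
Points give the log2 fold change, Nar minus EAE, of 29 tested members from edgeR with all 10 samples (circles) and without Nar 4 (squares), with bars of 1 SE. Leaving out Nar 4 moves the inflammatory genes to the left and narrows their bars, as for Cxcl16 from −1.35 to −2.48. It leaves Ccl27a at 0.42 and Cxcr4 near −1. The Cxcl13 square rests on 0, 1, 1 and 0 reads in Nar 1, 2, 3 and 5, so its place is not reliable.

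Many of these genes sit in clusters, and neighbours within a cluster were unequal in level. On chromosome 11, Ccl5, Ccl9, Ccl6, Ccl3 and Ccl4 lie within 139 kb (83525778 to 83664683), and all 5 were tested, with a median log2 fold change of −1.92. On the same chromosome, Ccl2, Ccl7, Ccl11, Ccl12, Ccl8 and Ccl1 lie between 82035571 and 82305690, of which 3 were tested (median −0.76). On chromosome 9, the receptor genes Ccr9, Cxcr6, Xcr1, Ccr1, Ccr1l1, Ccr3 and Ccr2 lie in 1 cluster, in which Cxcr6, Ccr1 and Ccr2 were tested and Ccr3 had 1 read over all Nar samples and 2 over all EAE samples. On chromosome 8, Ccl22, Cx3cl1 and Ccl17 lie within 66.4 kb, and Cx3cl1 was at 171 CPM in EAE beside 1.02 for Ccl22.

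Ligands were paired with receptors by textbook binding, giving 40 pairs. Both sides were measurable in 16 pairs, the ligand alone in 8, the receptor alone in 3 and neither in 13. Cxcl11 was not analysed here, so its pair with Cxcr3 counts under neither and its pair with Ackr3 under the receptor alone. Levels are compared between genes on the length-scaled FPKM scale (reads per kilobase of gene length and M counted reads). Cx3cl1 and Cx3cr1 were the most abundant pair: the ligand had a mean of 44.2 FPKM in Nar and 44.0 in EAE, and the receptor 15.8 and 28.4. The ligand-to-receptor ratio was 1.46 to 1.63 in EAE. In Nar it was 1.43 in Nar 4 and had a median of 3.58 over the group.

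Of the Cxcl12 genes, the receptor Cxcr4 fell and the ligand and Ackr3 did not pass. Cxcl12 had 14.3 FPKM in Nar and 12.9 in EAE, while Cxcr4 had 2.09 and 4.19 and Ackr3 2.91 and 3.95. The Cxcl12-to-Cxcr4 ratio was 5.29 to 9.83 in Nar and 1.92 to 4.17 in EAE, without overlap and with Nar 4 the lowest of Nar. The Cxcl12-to-Ackr3 ratio was 4.36 to 6.35 in Nar and 2.57 to 4.26 in EAE. For Ccl27a and Ccr10 the ratio was 14.6 to 31.1 in Nar and 10.9 to 23.7 in EAE. These ratios are descriptions with no test.

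In Nar 1, 2, 3 and 5, both sides of some pairs were below all EAE samples on the FPKM scale. These were Cxcl16 with Cxcr6, Ccl3, Ccl6 and Ccl9 with Ccr1, and Ccl2 and Ccl12 with Ccr2. For Ccl5 with Ccr1 the ligand was not below all EAE samples, at 2.68 FPKM in Nar 3 and 2.67 in EAE 3. Cxcl16 had 1.32 FPKM in Nar and 3.44 in EAE, and Cxcr6 0.188 and 0.908. Ccl5 had 3.61 and 6.77 FPKM, and its receptor Ccr1 0.347 and 0.907. For Ccl3 and Ccr1 the ratio was 0.822 to 3.70 in Nar and 1.20 to 25.5 in EAE. For Ccl2 and Ccr2 the ratio was 1.86 to 6.18 in Nar and 3.15 to 12.4 in EAE, so the ratios of the groups overlapped. Ccl12 was the most abundant Ccr2 ligand, at 8.30 FPKM in Nar and 15.3 in EAE, against 2.20 and 3.49 for Ccl2 and 0.971 and 1.70 for Ccl7.

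**Figure D5:**
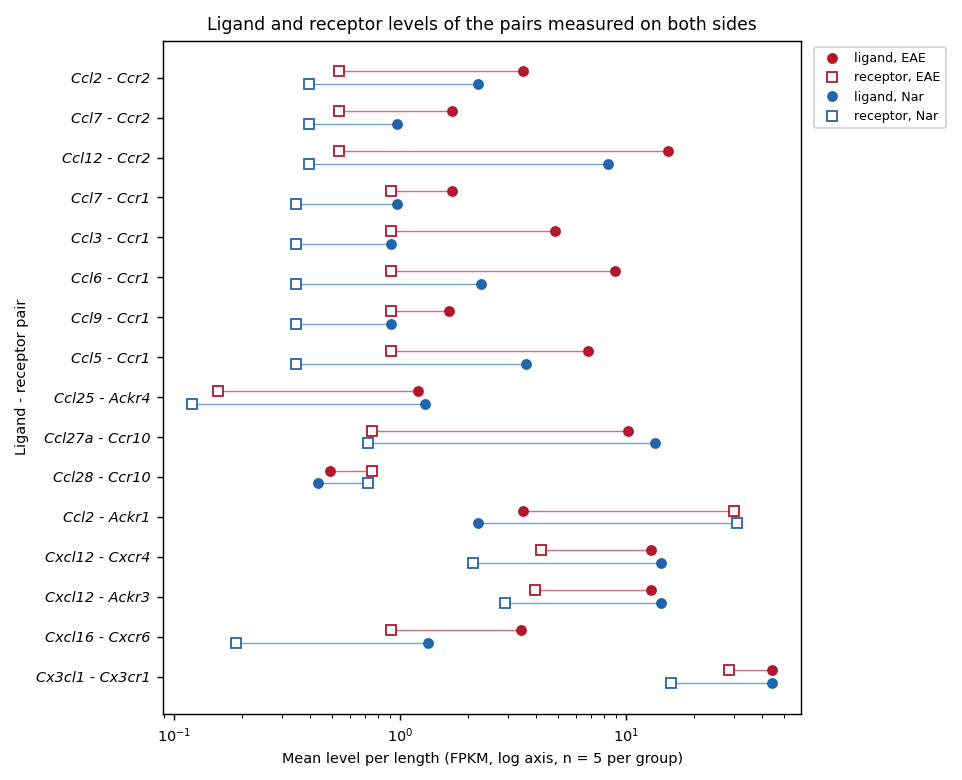
Horizontal lines join the mean level of a ligand (filled circle) and its receptor (open square) in FPKM on a log axis, for the 16 pairs measured on both sides, in EAE (red) and Nar (blue), n = 5 each. In the Cx3cl1 and Cxcl12 pairs the ligand points of the groups nearly coincide (44.2 and 44.0 FPKM for Cx3cl1), while the receptor points of Nar lie to the left.

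Many receptors of T cells, B cells and neutrophils were too low to test. Cxcr3, the receptor of Cxcl9 and Cxcl10, had 6, 1, 1, 5 and 0 reads in Nar and 19, 7, 9, 18 and 8 in EAE. Per M reads the groups overlapped, with 0.406 CPM in Nar 1 and 0.371 in EAE 2. Without the read filter it did not pass (log2 fold change −1.91, SE 0.626, edgeR adjusted p = 0.111). Cxcr5, the receptor of Cxcl13, had 5 reads over all Nar samples and 14 over all EAE samples. Ccr4, the receptor of Ccl17 and Ccl22, had 3 and 15, and Ccr7, which guides dendritic cells and naive T cells to lymph nodes, 9 and 23. Ccr6, a receptor of Th17 cells, had 2 and 10 reads, and its ligand Ccl20 2 and 0.

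The neutrophil axis was also near the detection limit. Cxcl1, the untested member with the highest count in any sample, had 6, 0, 8, 33 and 0 reads in Nar and 6, 16, 0, 18 and 33 in EAE. Cxcl2 had 3 reads over all Nar samples and 11 over all EAE samples, and their receptor Cxcr2 had 23 and 30. Neutrophil markers had 4 of 10 genes tested, of which 0 fell (edgeR), summing to 20.0 to 38.4 CPM in Nar and 36.6 to 55.2 in EAE. The largest part of these sums was Csf3r, which did not pass (log2 fold change −1.05, edgeR adjusted p = 0.097). It had 16.8 ± 10.1 CPM in Nar against 34.7 ± 5.24 in EAE (SD, n = 5 each), with Nar 4 at 34.7 CPM. The log2 fold change was 0.56 for S100a8, −0.15 for S100a9 and −0.81 for Ngp, none passing. Whether the sums reflect neutrophil number was not tested. The eosinophil attractant Ccl11 had 30 and 64 reads, and its receptor Ccr3 1 and 2.

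Of the 38 untested rows, 7 had 0 reads in all 10 samples. These were both rows of Ccl19, Cxcl15, Ccl21c, Ccl21d, the scaffold copy of Ccl21a and 1 of the 2 scaffold copies of Ccl21b. A count of 0 over all samples of a group allows up to 3 reads, or 0.0405 CPM in Nar and 0.0338 in EAE, counting error only. Ccl19, Ccl21 and Ccl27 genes have near-identical copies, so a count of 0 does not show that they were silent. The other 31 rows had 1 or more reads, including Ccl17 (37 and 50 over the groups), Ccr9 (24 and 32), Ccl21b on chromosome 4 (20 and 42), Xcr1 (8 and 21), Ccl1 (11 and 12), Ccr8 (4 and 14), Cxcl17 (7 and 4) and Ackr2 (6 and 9). The rest, Ccl24, Ccl26, Ccl27b, Ccr1l1, Cxcl3, Cxcr1, Xcl1 and copies of Ccl21 and Ccl27a, had at most 6 reads in any group.

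Genes that act with chemokines were read from 3 lists. Of 40 listed symbols of leukocyte entry and receptor signalling, 38 had a row in the deposited table and 37 were tested. Among those 37, 2 fell and 0 rose (median −0.30), against 2.36% and 1.58% of all genes tested. They were the integrin chain Itgb1 (−0.30, SE 0.0692, edgeR adjusted p = 0.0295) and the Src-family kinase Fgr (−1.35, SE 0.341, adjusted p = 0.0442). The actin regulator Was (−1.03, adjusted p = 0.0598) and the leukocyte integrin chain Itgb2 (−1.49, adjusted p = 0.0701) did not pass. Without Nar 4, 20 of the 37 were lower and 0 higher, against 7.49% and 2.61% of all genes tested.

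Regulators and related attractants had 18 of 22 tested, of which 4 fell and 0 rose (median −0.32). They were the heparan sulphate proteoglycans Sdc4 (−0.44, SE 0.0785, edgeR adjusted p = 0.00946) and Sdc1 (−1.07, SE 0.207, adjusted p = 0.0148), the oxysterol receptor Gpr183 (−1.21, SE 0.264, adjusted p = 0.0242) and Rgs1, which dampens chemokine receptor signalling (−2.14, SE 0.541, adjusted p = 0.0448). Heparan sulphate chains bind chemokines at cell surfaces. Inducers of chemokine genes had 31 of 36 tested, of which 1 fell and 0 rose (median −0.39). That count is near the 2.36% of all genes tested that were lower. The gene that fell was Ifngr1, a chain of the interferon gamma receptor (−0.65, SE 0.111, edgeR adjusted p = 0.00772). The transcription factors Stat3 (−0.37, adjusted p = 0.0548) and Nfkb1 (−0.34, adjusted p = 0.0666) and the TNF receptor Tnfrsf1b (−1.10, adjusted p = 0.0701) did not pass. Without Nar 4, 9 of 19 regulators and 21 of 31 inducers were lower, against 7.49% of all genes tested. Over the inducers Nar 4 summed to 947 CPM, inside the EAE range of 751 to 956, and Nar 1, 2, 3 and 5 summed to 526 to 586.

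Tissue cells that make chemokines were also followed by their markers. Astrocyte markers had 8 of 8 tested, 3 fell (Sox9, Aqp4 and Slc1a2), and they summed to 6223 to 6409 CPM in Nar 1, 2, 3 and 5, 8740 in Nar 4 and 8306 to 9190 in EAE. The largest part was Gfap, which did not pass (edgeR adjusted p = 0.184). It was at 5048 CPM in Nar 4 and at 2767 or less in the other Nar samples, with a mean of 4250 in EAE. Endothelial markers, a list that holds Ackr1, had 9 of 9 tested with 0 called by edgeR (summed level 636 to 740 CPM in Nar, 581 to 660.0 in EAE). Fibroblast and meningeal markers had 9 of 9 tested, and 5 fell, the collagen genes Col1a1, Col1a2 and Col3a1 and the matrix proteoglycans Lum and Dcn. The 9 markers summed to 487 to 635 CPM in Nar and 593 to 964 in EAE. Most of that sum was Ptgds, which did not pass (403 ± 64.8 CPM in Nar against 532 ± 154 in EAE, SD, n = 5 each, edgeR adjusted p = 0.252). The part of these cell types in the chemokine values was not tested.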

How the data were processed

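The deposited table has 21936 rows and, per the file headers, 10 columns of raw read counts and 10 of FPKM made by the authors, with 0 further sample columns. The submitters' processing notes name cutadapt and HISAT2 2.0.5. The counter and the annotation: not given in the sources used here. FPKM equals the deposited count per kilobase of gene length and M counted reads (100% of 153986 values above 0.1 within 1%). Coordinates are GRCm38: all 68 member rows are in GENCODE M21 and 66 have the same start and end. The labels' protocols name poly-T capture and no strand-marking step.

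Counts of all rows were filtered with filterByExpr (minimum count 10), scaled with TMM factors and tested with edgeR 4.0.16 in R 4.3.3 (robust quasi-likelihood, Nar minus EAE, 5 against 5). Adjusted p is Benjamini-Hochberg over the 14595 rows tested, at 0.05. An SE is the log2 fold change over the square root of F. CPM uses TMM-scaled totals. Sample totals were 14.5 to 19.0 M reads, and a count of 0 was taken to allow up to 3 reads. Alternatives used DESeq2 1.42.0, limma 3.58.1, other scalings, filters and thresholds, the replicate number as a block, the mitochondrial share and each sample left out. The fit was tested on simulated data. The members are reported except 1 tested gene, which is counted in the totals but not reported here. Sample values are given for members called with or without Nar 4 or with 10 CPM or more, and for others that illustrate a pair. Of each pathway list the 4 genes of smallest p are named. Proteins, planned for display, were not used here, and promoters are shown where a motif matched instead of for every called member. Members, lists, pairs and motifs were chosen with earlier results of these data known.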

Additional observations from a re-analysis of the deposited data

Results flagged for a closer look

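In 21 of the 58 groups of 5 values (29 tested members, Nar and EAE), the highest or lowest sample stood far from its 4 group mates by Dixon's 95% criterion, which chance meets in about 1 in 20 groups. Members share these samples, so the 21 are not independent.

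In 15 of them the sample was Nar 4, as the highest of Nar. Its levels were 14.2 CPM for Ccl12, 10.3 for Ccl2, 2.09 for Ccl3, 1.69 for Ccl4, 9.92 for Ccl5, 10.7 for Ccl6, 3.10 for Ccl7 and 7.56 for Ccl9. They were 2.50 CPM for Ccr1, 9.85 for Ccr2, 134 for Cx3cr1, 45.4 for Cxcl10, 5.40 for Cxcl13, 12.8 for Cxcl16 and 16.2 for Cxcl9. Cxcr4 and Cxcr6 were not among them.

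In 5 of them the sample was EAE 5, as the highest of EAE, with 16.6 CPM for Ccl12, 11.3 for Ccl2, 35.9 for Ccl6, 3.81 for Ccl7 and 37.2 for Cxcl10. The last was Cxcl12 in EAE 4, the lowest of EAE, with 86.3 CPM.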

How the results depend on the processing

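The count of members lower in Nar, 2 with all samples, was 1 without a filter on low counts, 5 with the DESeq2 Wald test, 6 with limma-voom, 17 with limma-voom and sample weights, and 4 with limma on log2(FPKM + 0.1). It was 0 with the mitochondrial share as a covariate and 0 at an adjusted p of 0.01. Leaving out each sample in turn gave 1 to 14 lower, with 14 without Nar 4, and 0 to 1 higher. Of the alternatives added after seeing the data, leaving out Nar 4 and EAE 5 gave 15 lower, and DESeq2 without Nar 4 gave 18. The count higher, 1, was 0 with the mitochondrial covariate and 0 at 0.01. Over 704 combinations of member and setting, 586 kept direction and side of the threshold, 66 passed newly, 21 no longer passed and 31 changed sign. A member that passed in neither fit and kept its sign counts among the 586. At thresholds of 0.1 and 0.01 the fit was the same, so the direction could not change there.

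The replicate number as a block gave 3 lower (Cx3cr1, Cxcr4 and Cxcr6) and 1 higher (Ccl27a), and Ccl3 had an adjusted p of 0.0511. Each sample's deviations from its group mean (log2 CPM, all tested genes) were correlated between the groups. Between same-numbered samples these correlations were −0.227 to 0.161. By them, 0 Nar and 1 EAE samples correlated best with their own number, so the numbers were not taken as a pairing.

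The sign changes were in members that did not pass with all samples. With the mitochondrial covariate, log2 fold changes were −0.069 for Ackr1, 0.88 for Ccl2, 0.21 for Ccl5, 0.42 for Ccl7, 0.12 for Ccr1, 0.54 for Ccr2, 0.81 for Cxcl10, 0.99 for Cxcl13, 0.10 for Cxcl5 and 0.45 for Cxcl9. This covariate differs between the groups, and the cause was not tested. With sample weights Ccl28 was 0.12. Without Nar 4, Ccl22 was −0.079 with edgeR and −0.079 with DESeq2, and −0.23 also without EAE 5. With each sample left out in turn, Ccl2 ranged from −2.69 to 0.30, Ccl22 from −0.079 to 0.26, Ccr10 from −0.17 to 0.077, Cx3cl1 from −0.017 to 0.086, Cxcl10 from −2.35 to 0.0196, Cxcl13 from −4.88 to 0.17 and Cxcl14 from −0.10 to 0.028. The Cxcl13 value of −4.88, without Nar 4, rests on 0, 1, 1 and 0 reads in Nar 1, 2, 3 and 5. The cause of the sign changes was not tested. Depth limits the members with few reads: 38 rows could not be tested.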
